A study of Rattus norvegicus with 4 samples.

Results

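RNA of the Notch pathway in the rat lens capsule was followed through 7 genes, and signaling itself was not measured. The genes were the ligands *Jag1* and *Dll1*, the receptors *Notch1*, *Notch2* and *Notch3*, and the target genes *Hes1* and *Hey1*. They were chosen by symbol: a probe set, meaning several short probes that together read a transcript, was kept when the platform annotation gave it one of these symbols and no other. All 7 genes had a probe set and *Notch1* had a pair, which gave 8 probe sets of the 31042 that remained without the controls, and 7 of 14217 named genes. The study performed extracapsular lens extraction (ECLE), which takes the lens content out through an opening in the capsule and leaves lens epithelial cells (LECs) behind, as a model of posterior capsule opacification. The animals were female albino Sprague-Dawley rats operated on at 7 weeks of age, with no transgene or drug arm, and every group, day 0 included, had undergone ECLE. Capsules were collected right after surgery (day 0, rats aged 7 weeks, 1 array), after 7 days (1 W, aged 8 weeks, 2 arrays labeled as biological replicates) and after 14 days (2 W, aged 9 weeks, 1 array). Time after surgery and age therefore cannot be told apart, and the sources used here do not say how many eyes were combined on an array. The study's methods describe more rat samples per time point than there are arrays here, and how those samples relate to the arrays is not given.

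Notch signaling passes between touching cells. A ligand such as Jagged1 or Delta-like 1 on a cell binds a Notch receptor on its neighbor, the proteases ADAM10 and γ-secretase then cut the receptor, and the freed intracellular part joins the DNA-binding protein RBPJ and Mastermind in the nucleus. This complex switches on genes of the *Hes* and *Hey* families, which encode basic helix-loop-helix repressors. In the developing lens, Jagged1 and Notch signaling are known for keeping epithelial cells dividing and for the orderly formation of fiber cells. Notch3 is best known from the mural cells of blood vessels, and *Hes1* from progenitors and glia of the retina as well as the lens.

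The promoters of *Hes1* and *Dll1* are shown because they were the members whose 250 bases before the RefSeq start site (build GRCr8) held the core RBPJ motif GTGGGAA, or TTCCCAC on the other strand, marked by the capitals. Promoter entries were matched for 6 of the 7 genes, *Jag1*, *Dll1*, *Notch1*, *Notch2*, *Notch3* and *Hes1*. The motif starts 124 bases before the start site of *Hes1*, at chr11:84213046-84213295 (minus strand), and 185 bases before that of *Dll1*, at chr1:64993275-64993524 (minus strand). These letters are held by 2 of the 6 promoters, by 9 of 53 promoters of the wider Notch lists, and by 5.27% of 33469 RefSeq promoters of the same length. A match is a stretch of letters and not a measured binding site.
*Hes1*: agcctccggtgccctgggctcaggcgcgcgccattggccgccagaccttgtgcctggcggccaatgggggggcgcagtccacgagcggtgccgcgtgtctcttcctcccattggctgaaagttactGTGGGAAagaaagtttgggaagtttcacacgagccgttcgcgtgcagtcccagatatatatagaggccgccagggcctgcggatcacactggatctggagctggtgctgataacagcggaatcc
*Dll1*: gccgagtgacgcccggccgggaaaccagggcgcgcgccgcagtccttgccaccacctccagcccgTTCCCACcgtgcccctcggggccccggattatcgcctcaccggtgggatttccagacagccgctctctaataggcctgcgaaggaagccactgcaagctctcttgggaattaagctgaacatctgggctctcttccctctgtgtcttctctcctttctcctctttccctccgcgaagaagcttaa

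The values are linear intensities. Median array intensity lay between 31.9 (2 W) and 57.0 (day 0), and the arrays were scaled to their means before log2 ratios to day 0 were taken. After scaling, the median log2 ratio of the 10455 tested genes was -0.01 for the first week and -0.21 for 2 W, so each member is read against these shifts. The lens epithelium markers *Pax6*, *Foxe3* and *Cryaa* had intensities of 1471 or more at day 0, while *Sox2* (1248), *Pitx3* (618.8) and *Six3* (54.0) were lower. Of 11 markers of that list, 5 were below day 0 on each array after ECLE and 2, *Cryaa* among them, were above it on each. The share of all genes beside these counts was not computed. Photoreceptor transcripts were also present: summed over 10 markers they came to 64.0 array means at day 0, to 6.27 on replicate 1 and 27.1 on replicate 2 at 1 W, and to 8.41 on the 2 W array. Summed macrophage markers (14 genes) came to 2.52, 17.3, 13.5 and 9.64 array means in the order of day 0, both 1 W replicates, and 2 W, with 11 over 2.0-fold on each array. Those of ciliary body and iris pigment epithelium (6 genes) came to 10.8, 67.3, 24.1 and 37.0, all 6 higher on replicate 1 than on replicate 2. Lens fiber markers (9 genes) came to 190.4, 227.3, 197.3 and 389.5, all 9 above day 0 at 2 W. The sums hide differences among these markers at 1 W. *Bfsp1* was at 0.302 (replicate 1) and 0.178 (replicate 2) of day 0, and *Crygc* at 0.131 and 0.062. In contrast, 6 of the 9 were above day 0 on each array after ECLE. The part of these cell types in the members' values was not tested. The samples are thus not LECs alone, and in such bulk tissue fewer cells of a type and less RNA per cell cannot be told apart. The study measured RNA integrity directly and reports a high RNA integrity number for all its samples. On the arrays, the 3' over 5' signal of beta-actin was 2.32 at day 0 and between 1.61 and 1.91 afterward. That of GAPDH was 1.159 at day 0 and between 1.098 and 1.184 afterward. The part of these ratios in the results was not tested.

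After scaling, *Jag1* and *Hey1* had log2 ratios of 0.23 and 0.22 at 1 W, and at 2 W those of *Notch1*, *Notch2*, *Hes1* and *Hey1* lay between -2.77 and -0.80. The 2 W array was the dimmest as a whole, and all members but *Notch3* had their lowest deposited intensity there. None of the 7 genes passed limma over all probe sets at either time. Limma was fitted to the 3 groups together, leaving out dim probe sets (mean level under the 40th percentile), and a Benjamini-Hochberg adjusted p under 0.05 counted as called. Only the pair at 1 W informs the spread (1 residual degree of freedom), which the single arrays of day 0 and 2 W are taken to share. *Notch2* and *Notch3* lay below the level filter, which left 5 genes tested. Limma called 0 of the 5 at 1 W and 0 at 2 W, where 0.0478% of tested genes were called at each time. At an unadjusted p under 0.05, 0 members were lower or higher at 1 W (background 8.92% lower and 10.4% higher), while 2 of 5, *Notch1* and *Hey1*, were lower and 0 higher at 2 W (background 22% and 10.8%). These counts take each gene by its brightest probe set, and the 2 W count was 0 with median or 75th percentile scaling, 1 with quantile scaling and 4 as deposited. At 2 W, 6 of the 7 genes lay below day 0, as did 57.9% of all genes, and 2 of the 7, *Notch2* and *Hes1*, were under 0.5-fold, as were 14.7% of all genes. No member was over 2.0-fold on all 3 postoperative arrays and none was under 0.5-fold on all 3, against 4.28% and 2.59% of all genes.

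**Figure D1:**
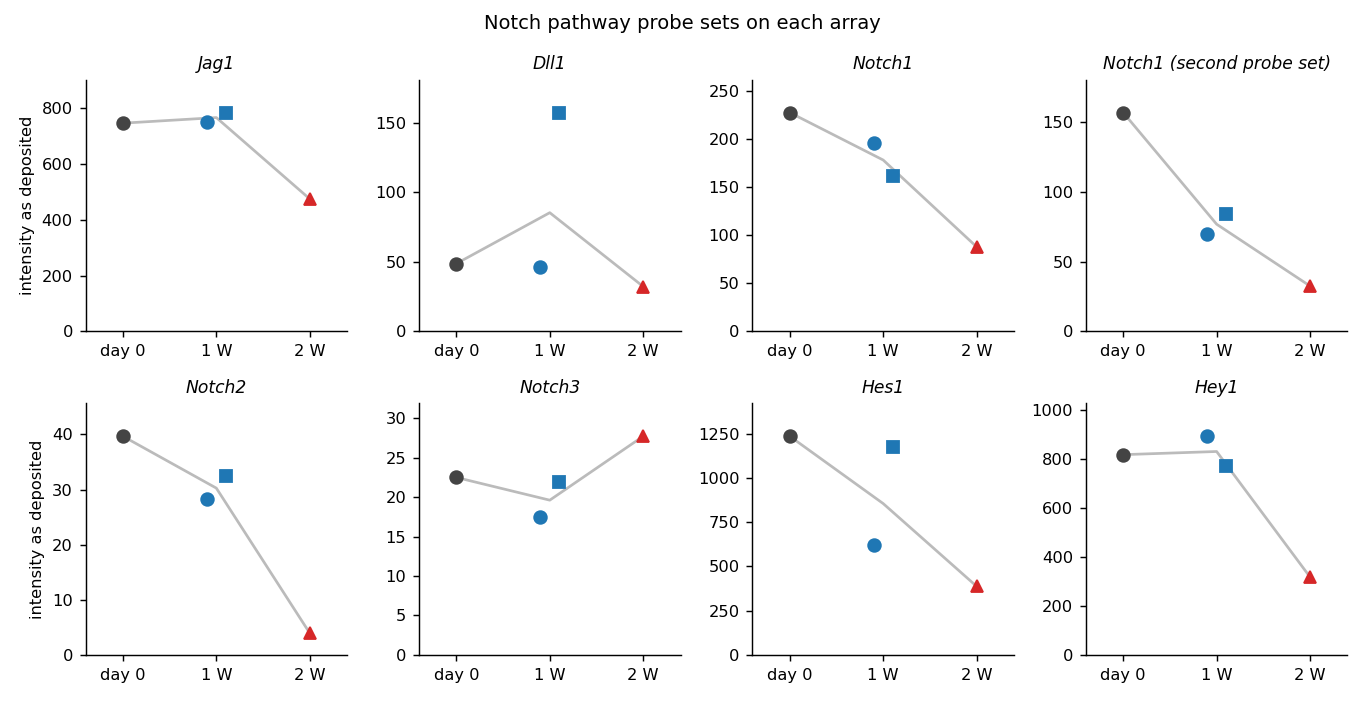
Deposited intensity (vertical axis, linear, from 0) of the 8 Notch pathway probe sets on the array at day 0 (dark circle), replicates 1 (blue circle) and 2 (blue square) at 1 W, and the array at 2 W (red triangle), with a grey line through the geometric mean at 1 W. All members but *Notch3* are lowest on the 2 W array, which was the dimmest as a whole, and the replicates at 1 W stand apart for *Dll1* (46.2 and 157.2) and *Hes1* (622.7 and 1175).

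Among the ligands, *Jag1* stayed within its error of day 0. It read 746.9 on the day 0 array, 749.4 (replicate 1) and 785.1 (replicate 2) at 1 W, and 474.8 on the 2 W array. The 2 arrays at 1 W were close to each other and to day 0, and the 2 W array was lower as deposited but near day 0 after scaling. The log2 ratio of *Jag1* was 0.23 at 1 W (95% interval -0.15 to 0.62, adjusted p = 0.433 from limma). At 2 W it was -0.09 (95% interval -0.53 to 0.36, adjusted p = 0.742). At 2 W the ratio of *Jag1* stood 0.12 above the median of tested genes on the log2 scale, and its sign turned with median scaling (0.19).

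*Dll1*, the other ligand measured, was set by a single array. The array of day 0 gave an intensity of 48.6, replicate 1 at 1 W 46.2, replicate 2 157.2, and the 2 W array 32.1. Replicate 2 at 1 W was above all other arrays, while replicate 1 was at the level of day 0. The replicates differed by 3.53-fold after scaling, and 0.947% of tested genes differed by as much or more. The mean log2 ratio of *Dll1* at 1 W was 1.00 (standard error 0.82, adjusted p = 0.55 from limma), and it was 0.09 from replicate 1 and 1.91 from replicate 2. At 2 W it was -0.03 (adjusted p = 0.985).

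The receptors differed in pattern. *Notch1*, a receptor of dividing epithelia and progenitors, read 228.0 on the day 0 array, 196.5 and 162.1 on the pair at 1 W (replicate 1 first), and 88.0 on the last array. The 1 W arrays lay between day 0 and 2 W. Its log2 ratio was -0.16 at 1 W (adjusted p = 0.7 from limma) and -0.81 at 2 W (standard error 0.24, 95% interval -1.46 to -0.16, unadjusted p = 0.026, adjusted p = 0.119). The second probe set of *Notch1* ran the same way, with intensities of 156.9, 70.0, 84.2 and 32.4 in the order of day 0, replicates 1 and 2 at 1 W, and 2 W. Each array after ECLE was below day 0, and 2 W was the lowest. Its log2 ratio was -0.84 at 1 W (95% interval -1.60 to -0.07, unadjusted p = 0.038, adjusted p = 0.256 from limma) and -1.71 at 2 W (standard error 0.32, 95% interval -2.59 to -0.83, adjusted p = 0.072), a larger difference than that of the first probe set.

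*Notch2*, a receptor expressed in many tissues of the eye, was dim. Its intensity was 39.7 on day 0, then 28.2 (replicate 1) and 32.4 (replicate 2) at 1 W, then 3.94 at 2 W. Only the 2 W array stood apart, at 0.147 of day 0 after scaling, a log2 ratio of -2.77. The probe set was at the 35.5 percentile of level and so was not tested. In limma with no level filter its 2 W value had a standard error of 0.65 and an adjusted p of 0.128. No detection calls were used here, so an intensity this low may lie at background, and with the floor at the 20th percentile the log2 ratio was -1.97.

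*Notch3*, the receptor known from mural cells, read 22.5 on day 0, 17.5 on replicate 1 and 22.0 on replicate 2 of 1 W, and 27.7 on the 2 W array. The 1 W arrays were on either side of day 0 after scaling, and the 2 W array was above it. Its mean log2 ratio was -0.01 at 1 W, that of 2 W was 0.87, and *Notch3* was the only member above day 0 at 2 W with arrays divided by their means. It was below the level filter, and limma with no filter gave an adjusted p of 0.476 at 2 W. At 2 W, 57.9% of all genes lay below day 0. Of the 9 other mural cell markers, 7 were above day 0 at 2 W, with a median log2 ratio of 0.97. Their summed level was 2.00 array means on day 0, 7.08 (replicate 1) and 1.84 (replicate 2) at 1 W, and 3.85 on the 2 W array. *Notch3* was 1.30-fold lower on replicate 1 than on replicate 2, and 24.0% of tested genes differed by as much or more. Of these 9 markers, 8 were higher on replicate 1, and the share of all genes higher there was not computed. The part of mural cells in the *Notch3* value was not tested.

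The target genes had lower ratios at 2 W than at 1 W. *Hes1*, the repressor most often read as a response to Notch, read 1236 on the day 0 array, 622.7 on replicate 1 and 1175 on replicate 2 of 1 W, and 387.7 on the 2 W array. Replicate 2 was at the level of day 0, replicate 1 lay between day 0 and 2 W, and 2 W was lowest. The log2 ratio was -0.82 from replicate 1 and 0.15 from replicate 2, which gave a mean of -0.34 at 1 W (standard error 0.43, adjusted p = 0.699 from limma). At 2 W it was -1.11 (standard error 0.50, 95% interval -2.48 to 0.26, adjusted p = 0.221), a ratio of 0.464. The 2 replicates differed by 1.95-fold, and 5.1% of tested genes differed by as much or more.

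Photoreceptor markers and *Hes1* were both lower on replicate 1 than on replicate 2 at 1 W, and the median difference of Müller glia markers was smaller. All 10 photoreceptor markers were lower on replicate 1 than on replicate 2, with median log2 ratios to day 0 of -3.46 and -1.24, and -2.89 at 2 W. Of 8 Müller glia markers, 7 were lower on replicate 1, with a median log2 difference of -0.26 over the 8. *Dkk3* and *Car2* differed by only -0.04 each, and *Kcnj10*, below the level filter, was higher on replicate 1. The 8 summed to 46.4 array means on day 0, 42.2 (replicate 1) and 52.4 (replicate 2) at 1 W, and 44.8 at 2 W. The share of all genes lower on replicate 1 was not computed. *Dll1* was likewise higher on replicate 2 (157.2), but its day 0 intensity (48.6) was near that of replicate 1 (46.2). Summed photoreceptor markers were instead highest on day 0, at 64.0 array means against 6.27 (replicate 1) and 27.1 (replicate 2). The part of retinal RNA in the values of *Hes1* and *Dll1* was not tested.

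*Hey1*, a related repressor of the Hairy family, had tight replicates. The intensity was 816.2 on day 0, 891.3 (replicate 1) and 771.2 (replicate 2) at 1 W, and 317.2 on the 2 W array. The 2 W array was below each of the other 3 arrays, which differed little among themselves. The log2 ratio was 0.22 at 1 W (95% interval -0.19 to 0.62, adjusted p = 0.481 from limma) and -0.80 at 2 W (standard error 0.17, 95% interval -1.26 to -0.33, unadjusted p = 0.00885, adjusted p = 0.0811). Relative to the median of tested genes the 2 W value was -0.59.

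**Figure D2:**
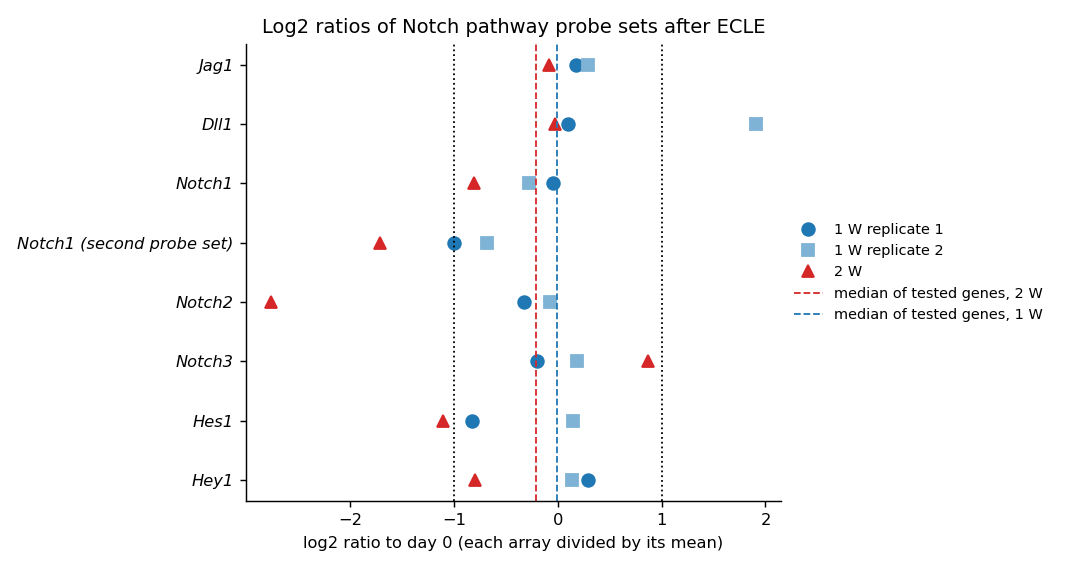
Log2 ratio to day 0 (horizontal axis, arrays divided by their means) of the 8 probe sets for the 1 W replicates 1 (circles) and 2 (squares) and the 2 W array (triangles), with dotted lines at 2.0-fold and 0.5-fold and dashed lines at the median of tested genes (-0.01 at 1 W and -0.21 at 2 W). The triangles of *Notch2* (-2.77), the second *Notch1* probe set (-1.71) and *Hes1* (-1.11) lie left of 0.5-fold, and that of *Notch3* (0.87) lies right of 0.

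Between 1 W and 2 W, *Hey1* had the clearest difference of the members. Its log2 ratio of 2 W to 1 W was -1.01 (standard error 0.15, 95% interval -1.42 to -0.61, unadjusted p = 0.00213), which is 0.496 of the 1 W level, with an adjusted p of 0.139 from limma, above the threshold. Those of *Notch1* were -0.65 (unadjusted p = 0.0332, adjusted p = 0.2) and, by the second probe set, -0.87 (adjusted p = 0.202). *Jag1* had a log2 ratio of -0.32 (adjusted p = 0.279), *Hes1* -0.77 (adjusted p = 0.36) and *Dll1* -1.03 (adjusted p = 0.499). Limma called 0 of 5 members and 0% of 10455 tested genes in this comparison. At an unadjusted p under 0.05, 2 of the 5 were lower and 0 higher, where 18.7% of tested genes were lower and 6.02% higher. This comparison shares its 2 W array with that of 2 W and day 0, so their values are not independent of each other. The counts of members and of tested genes given here hold for scaling to the array mean and moved with other scalings. With median scaling, the log2 ratio of 2 W to 1 W was -0.49 for *Notch1* and -0.86 for *Hey1*.

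**Figure D3:**
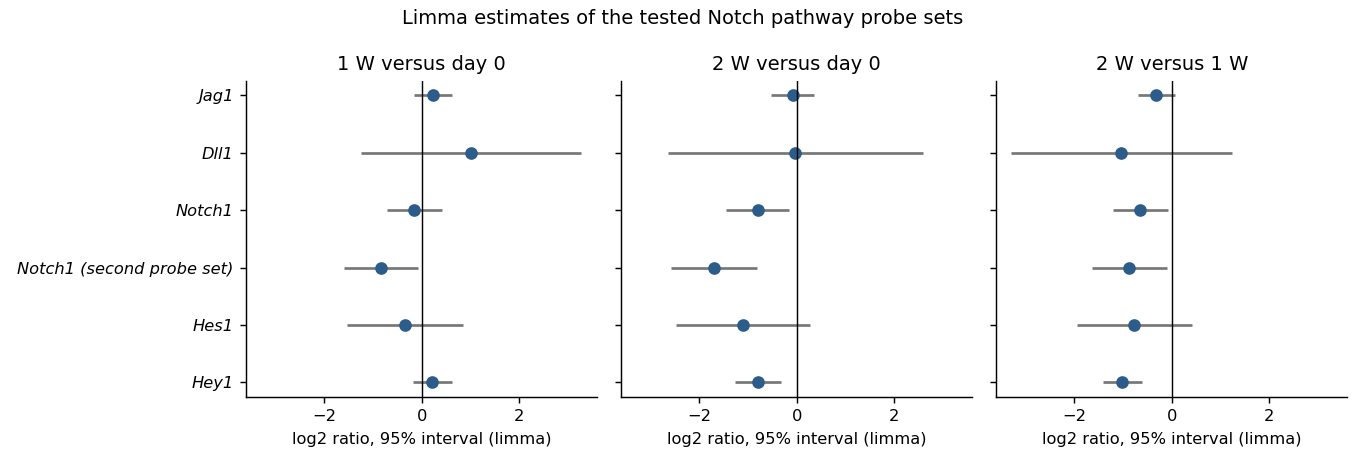
Limma log2 ratios (points) with 95% intervals (lines) of the 6 tested probe sets in the 3 comparisons, with arrays divided by their means. The intervals of *Dll1* and *Hes1* span 0 in each panel, while those of *Hey1* and both *Notch1* probe sets lie below 0 for 2 W versus day 0 and 2 W versus 1 W. The interval of the second *Notch1* probe set also lies below 0 for 1 W versus day 0. None passed the adjusted threshold.

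The wider pathway was described with lists of 49 other genes, of which 39 had a probe set and 31 were tested. Limma called 0 of the 31 at either time. *Hey2*, the sister gene of *Hey1*, had the smallest p against day 0 at both times among the lists. It read 685.7 on day 0, 280.1 (replicate 1) and 262.3 (replicate 2) at 1 W, and 129.6 on the 2 W array. Every array after ECLE was under 0.5-fold. With the members included, *Hey2* was the single gene of the lists for which this held (1 of 46), beside 2.59% of all genes. Its log2 ratio was -1.15 at 1 W (standard error 0.16, adjusted p = 0.119 from limma) and -1.84 at 2 W (standard error 0.18, adjusted p = 0.0553), and it passed at 2 W with median or 75th percentile scaling and as deposited. *Hey1* and *Hey2* thus stood apart at 1 W, with log2 ratios of 0.22 and -1.15, a difference between the genes that was not tested. *Hes6*, a family member that opposes *Hes1*, was near day 0, with a log2 ratio of 0.15 for the 1 W mean and -0.12 for 2 W.

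At an unadjusted p under 0.05, 5 of the 31 other tested genes were lower (*Adam17*, *Psen2*, *Neurl1*, *Ep300* and *Hey2*) and 1 higher (*Hdac1*, a deacetylase of the RBPJ repressor complex) at 1 W, beside 8.92% and 10.4% of all tested genes. At 2 W, 13 were lower and 0 higher, beside 22% and 10.8%. The median log2 ratio over all 39 other genes, tested or not, was -0.18 at 1 W and -0.46 at 2 W, beside -0.02 and -0.16 for all genes. The count at 2 W moved with the scaling, to 8 lower with the array median (12.4% of tested genes), 6 with the 75th percentile (11%) and 9 with quantile scaling (13.7%). Of 39 genes, 29 lay below day 0 at 2 W, as did 57.9% of all genes.

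By role, these lower values at 2 W are read against the 22% of all tested genes in the same fit, and the counts hold for scaling to the array mean. Each gene was counted by its brightest probe set. Of 7 tested cleavage genes, 4 were lower at 2 W at an unadjusted p under 0.05 (*Adam17*, *Psen2*, *Ncstn* and *Aph1a*). The other tested probe set of *Ncstn* was at day 0 level at 2 W (log2 ratio 0.006, against -0.77 for the brightest). *Aph1a* and *Psenen*, both subunits of γ-secretase, had log2 ratios of -0.76 (adjusted p = 0.0771 from limma) and -0.33 at 2 W. Of 8 tested genes of the nuclear complex, 4 were lower (*Rbpj*, *Maml2*, *Ep300* and *Crebbp*). The probe sets of *Maml2* differed at 2 W, with log2 ratios of -0.93 for the brightest and -0.22 for another tested one. Those below the level filter had -4.03 and 1.04. *Ep300*, a histone acetyltransferase recruited by the complex, read 1029 on day 0, 584.1 (replicate 1) and 564.2 (replicate 2) at 1 W, and 334.3 on the 2 W array, a log2 ratio of -1.06 at 2 W (adjusted p = 0.0602). *Kat2b*, another acetyltransferase, had a log2 ratio of 0.11 at 2 W. *Rbpj*, named here after its values were seen as the DNA-binding center of the pathway, had a 1 W log2 ratio of -0.10 and a 2 W one of -0.65 by the brightest of its probe sets, while another stood at 0.18 at 2 W.

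Differences between the roles were not tested. Among 3 tested glycosylation genes, 1 was lower at 2 W at an unadjusted p under 0.05, *Poglut1*, a glucosyltransferase of Notch receptors, with a log2 ratio of -0.71. *Rfng*, of the Fringe family, had -0.18. Of 7 tested genes of trafficking and ubiquitination, 2 were lower, *Neurl1* and *Dtx2*. *Dtx2*, a Deltex ubiquitin ligase, had intensities of 74.99, 53.2, 63.2 and 4.60 in the order of day 0, both 1 W replicates, and 2 W. Its 2 W log2 ratio was -3.46 (adjusted p = 0.0577 from limma), and like that of *Notch2* its 2 W intensity may lie at background, so the size of the difference is uncertain. *Numb*, an inhibitor of Notch, had -0.58 and *Mib2*, a ubiquitin ligase of ligands, -0.56, neither at an unadjusted p under 0.05. The other ligands and receptors were dim. *Dll4*, a ligand of endothelium, had log2 ratios of 0.84 (replicate 1) and 0.19 (replicate 2) at 1 W and 0.32 for 2 W. The endothelial receptor *Notch4* had -0.08, 0.24 and 0.50 in the same order, and *Dlk2* had -2.00, -0.55 and -0.18. By the brightest probe set of each gene, 1 of the 46 list genes was over 2.0-fold on each array, beside 4.28% of all genes. It was *Dlk1*, a Delta-like protein of stromal and progenitor cells. Named after its values were seen, it had intensities of 2.25, 33.6, 9.68 and 28.7 in array order and was below the level filter. A dimmer probe set of *Hes5* (4.81 to 7.02-fold) and of *Nrarp* (4.64 to 10.9-fold) was also over 2.0-fold on each array. Both were below the filter, with day 0 intensities of 7.785 and 0.77. By their brightest probe sets, the 2 W log2 ratios were -1.71 for *Hes5* and 0.05 for *Nrarp*. Among 9 endothelial markers, 5 were above day 0 on each array after ECLE and 2 were below it on each. The share of all genes beside these counts was not computed. Of the 5, *Pecam1* was below the level filter, and *Cldn5* was 6.02-fold of day 0 on replicate 1 but 1.25-fold on replicate 2. The part of endothelium in the values of *Dll4* and *Notch4* was not tested.

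**Figure D4:**
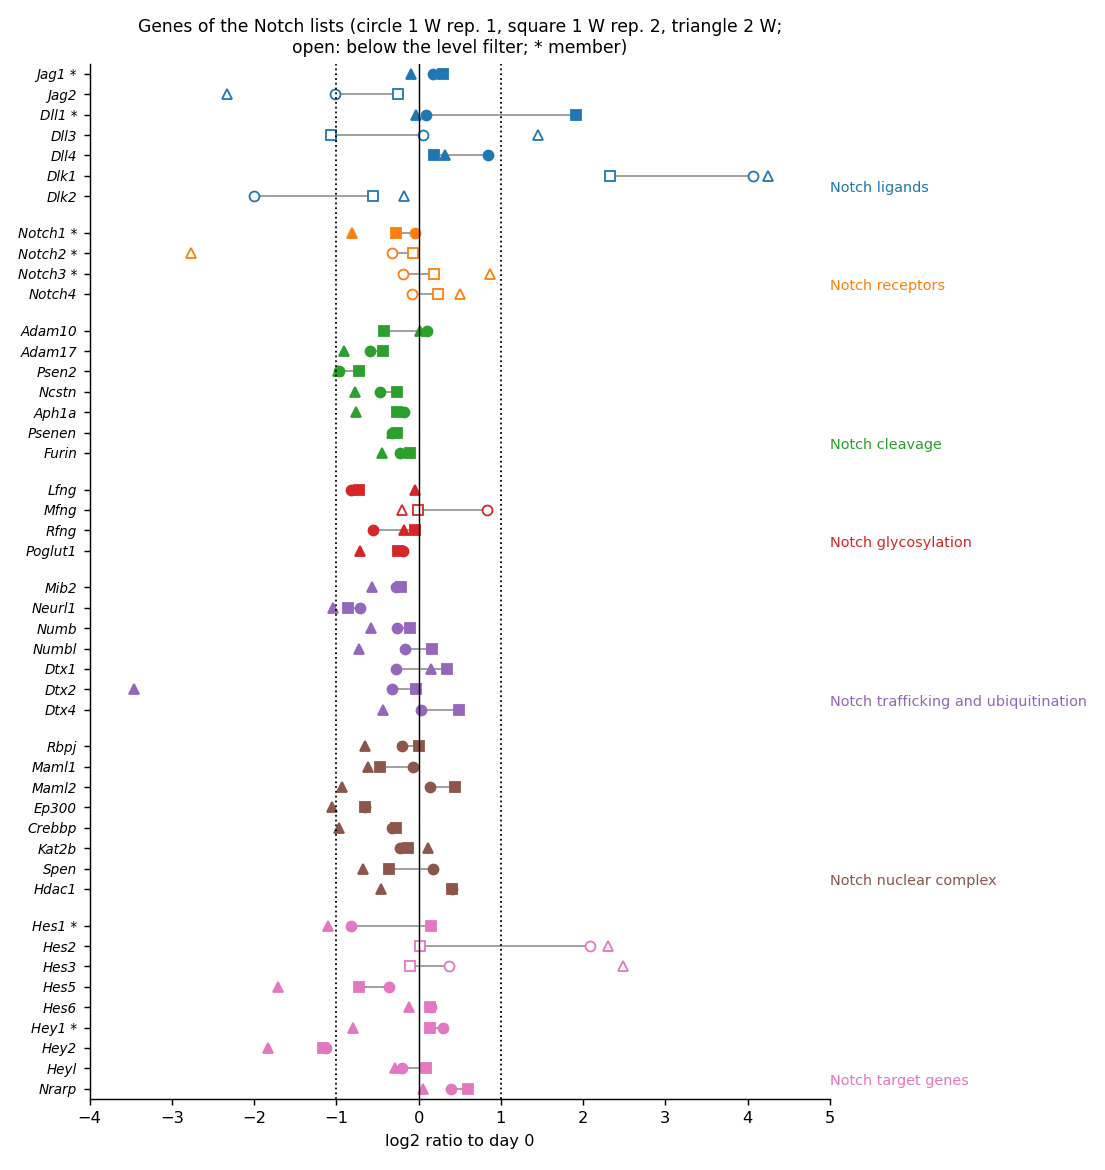
For the 46 Notch list genes with a probe set, the horizontal axis gives the log2 ratio to day 0, by role, on replicate 1 (circles) and replicate 2 (squares) at 1 W and at 2 W (triangles), each by its brightest probe set. Grey lines join the replicates, open symbols mark genes below the level filter and a star marks the 7 members. Most triangles lie left of 0 (35 of 46), and all symbols of *Hey2* lie left of 0.5-fold.

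Many genes shared the pattern of *Jag1* and few that of *Hes1*. Likeness was measured as the Euclidean distance over the 3 log2 ratios to day 0 (2 arrays at 1 W and 1 at 2 W), among tested genes. Nearest to *Jag1* were *Mrpl20*, *Atp5f1c* and *Uspl1*, at distances of 0.025 to 0.039, and 547 genes lay within 0.25. Nearest to *Notch1* were *Zbtb11os1*, *Wasf1* and *Bcl2l11*, at 0.042 to 0.063, with 250 genes within 0.25. Nearest to *Hes1* were *Gpm6a*, *Slc16a10* and *Rgs9*, at 0.116 to 0.133, with 18 genes within 0.25. These are descriptions of 3 ratios that share the day 0 array.

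The scaling decided the sign of the ligands at 2 W but not that of the target genes. Without scaling, where the median of tested genes at 2 W was -0.78, the log2 ratios at 2 W were -0.65 for *Jag1*, -1.37 for *Notch1*, -1.67 for *Hes1* and -1.36 for *Hey1*, and these 4 members passed limma along with 7974 of 18625 probe sets. With median scaling, where the median of tested genes was 0.06, the log2 ratios of *Notch1*, *Hes1* and *Hey1* were -0.53, -0.83 and -0.52, and no member passed.

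**Figure D5:**
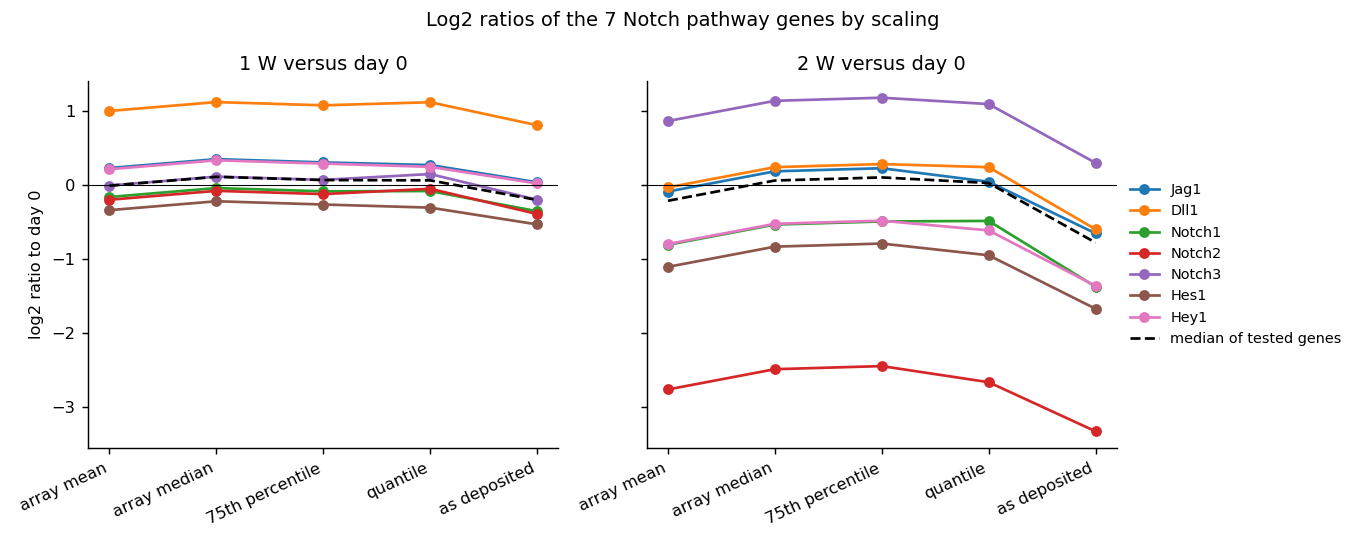
Log2 ratio to day 0 (vertical axis) of the 7 genes at 1 W (left, mean of both arrays) and 2 W (right) with the arrays divided by their mean, median or 75th percentile, quantile scaled, or as deposited, with the median of tested genes dashed. At 2 W *Notch1*, *Notch2*, *Hes1* and *Hey1* lie below the dashed line and below 0 in all 5, and *Jag1* and *Dll1* cross 0.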

How the data were processed

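RNA of rat lens capsules was labeled with biotin and hybridized to 4 rat genome arrays. The values the authors deposited are linear intensities, 31099 probe sets an array, made with Affymetrix Command Console and Affymetrix Expression Console (the latter also in the submitters' processing notes). The sources used here do not give the summary algorithm or any scaling it applied. Groups came from the sample labels.

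From these intensities 57 controls were removed, each array was divided by its mean, following the methods, and log2 was taken. Where a gene had several probe sets, the one brightest on average (log2) stood for it. Limma 3.58.1 in R 4.3.3 (lmFit, eBayes with an intensity trend, two-sided) was fitted to the 18625 that reached the 40th percentile of mean level, with 1 residual and 3.12 prior degrees of freedom. It was also run on simulated data, with noise on every array drawn from the spread of the 1 W pair. That run checked only that mean log2 ratios were recovered to within 0.5. It did not check error rates, power or the shared spread. P-values measure the spread between the 2 arrays at 1 W. Gene names came from the platform annotation: 20826 probe sets had a single symbol, 436 several and 9780 none. Of the wider lists, 10 genes without such a probe set were not analysed here. Promoter sequences came from RefSeq (GRCr8). Named genes were the members, the 2 brightest of each wider list, and the 3 nearest in pattern. *Rbpj*, *Dlk1*, *Dtx2*, *Hdac1*, *Hes5*, *Nrarp* and the genes listed beside counts of 5 or fewer were named after their values were seen. Fold rules (over 2.0, under 0.5) follow the methods. The members and lists were chosen with earlier results of these data known. Tables and figures used Python 3.11.15, numpy 2.4.6, pandas 2.3.3 and matplotlib 3.10.9. Alternatives were other scalings, a floor at the 20th percentile, no filter or the 60th percentile, limma without a trend or robust, arrays after ECLE as 1 group, the mean of a gene's probe sets, and each 1 W replicate left out.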

Additional observations from a re-analysis of the deposited data

Results flagged for a closer look

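For *Jag1*, *Dll1* and *Hey1*, both arrays at 1 W lay above day 0 and the array at 2 W below it, with arrays divided by their means. The difference itself was tested by limma as 2 W versus 1 W. Its log2 value was -0.32 for *Jag1* (adjusted p = 0.279), -1.03 for *Dll1* (adjusted p = 0.499) and -1.01 for *Hey1* (adjusted p = 0.139), and none passed. The opposite signs of *Jag1* and *Dll1* rest on 2 W values of -0.09 and -0.03, which turned with other scalings. No group held enough arrays to test a single array as an outlier.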

How the results depend on the processing

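Calls by limma depended on the scaling. As deposited, it called 4 members at 2 W versus day 0 and 3 at 2 W versus 1 W, and of the wider lists with the members 1 gene at 1 W, 26 at 2 W and 16 at 2 W versus 1 W. Median scaling called 2 genes of these lists at 2 W (*Dtx2* and *Hey2*) and 1 at 2 W versus 1 W (*Dtx2*), and 75th percentile scaling called 1 at 2 W (*Hey2*). The other settings with a test left every such count at 0. As deposited, the members' log2 ratios that passed were -0.65 (*Jag1*), -1.37 (*Notch1*), -1.67 (*Hes1*) and -1.36 (*Hey1*) at 2 W, and -0.69 (*Jag1*), -1.02 (*Notch1*) and -1.39 (*Hey1*) at 2 W versus 1 W. The sign at 2 W turned for *Jag1* with 75th percentile (0.23), median (0.19) and quantile (0.046) scaling, and for *Dll1* with the same 3 (0.29, 0.24 and 0.24). With all arrays after ECLE as 1 group, which gives a mean over times, values were 0.13 for *Jag1*, 0.66 for *Dll1* and -0.12 for *Hey1*, and no member passed. No member was over 2.0-fold or under 0.5-fold on each array in any scaling or without either 1 W replicate. With either 1 W replicate left out no spread can be estimated, so only ratios were computed: the 1 W log2 ratio ranged from 0.09 to 1.91 for *Dll1* and from -0.82 to 0.15 for *Hes1*. No paired analysis was possible because only 1 W has replicate numbers. Dim probe sets, *Notch2* and *Notch3* among them, are the least certain, since their signal over background is unknown.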
